A study of Mus musculus with 15 samples.

Results

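Hes1, Hes5, Hey1, Hey2 and Heyl are the Hes and Hey genes, the classical transcriptional targets of the Notch receptor, and they were picked by gene name from every table that lists them. They are 5 of the 28269 genes in the series. The wild-type tables list 3 of them (Hey1, Hey2 and Heyl) among 6414 genes, the E-OEX tables list 5 among 4903 and the U-OEx tables list 5 among 27946. Hes1 and Hes5 were therefore not analysed in wild type. RNA sequencing was done on epithelium of the mouse uterus on day 4, with 3 libraries in each of 5 groups. The groups were wild-type luminal epithelium (LE, the sheet facing the uterine cavity), wild-type glandular epithelium (GE, the glands below it), LE and GE of mice labelled E-OEX, and LE of mice labelled U-OEx. E-OEX and U-OEx mice both carry the genotype label of Notch1 overexpression. The labels do not say what the 2 names stand for, which promoter or cell type drives the gene, or how old the mice were, so the names are used as names only. They also do not say whether the 3 libraries of a group came from separate animals, and p-values here measure the spread between libraries.

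Notch receptors are cut after they bind a ligand on a neighbouring cell, and the released intracellular domain enters the nucleus. There it joins the DNA-binding protein RBPJ and coactivators of the Mastermind family and switches on target genes. Hes and Hey proteins are basic helix-loop-helix (bHLH) repressors: they bind DNA as dimers, recruit corepressors such as the TLE proteins, and hold back other transcription factor genes. In the uterus, Notch signalling is known for its part in the changes of epithelium and stroma around implantation.

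The promoters of Hes5 and Hey2 are shown because they were the 2 of the 5 genes that the table of RefSeq promoters used here held (build GRCm38.p6). They hold the letters TGGGAA, the core of the site that RBPJ binds. Each line gives 250 bases before the transcription start and the first 5 bases from it, in the direction of the gene. Capitals mark TGGGAA, or TTCCCA where it lies on the opposite strand.
Hes5: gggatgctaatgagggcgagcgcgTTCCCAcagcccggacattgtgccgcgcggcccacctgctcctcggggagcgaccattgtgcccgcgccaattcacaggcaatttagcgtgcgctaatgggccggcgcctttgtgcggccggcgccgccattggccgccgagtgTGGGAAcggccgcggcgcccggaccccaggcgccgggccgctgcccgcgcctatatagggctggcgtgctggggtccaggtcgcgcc
Hey2: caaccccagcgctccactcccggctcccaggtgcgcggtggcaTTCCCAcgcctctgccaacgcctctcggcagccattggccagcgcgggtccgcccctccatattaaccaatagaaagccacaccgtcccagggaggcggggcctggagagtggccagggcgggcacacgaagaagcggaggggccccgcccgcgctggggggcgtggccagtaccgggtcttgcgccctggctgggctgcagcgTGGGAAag

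The Hes5 sequence lies at chr4:154960673-154960927 on the plus strand and the Hey2 sequence at chr10:30842779-30843033 on the minus strand. In Hes5, TGGGAA lies at bases -82 to -77 from the start on the gene's own strand, and at -226 to -221 on the opposite strand. In Hey2, 1 copy on the opposite strand lies at bases -207 to -202, and the other, on the gene's own strand, spans the RefSeq start. The GENCODE model of Hey2 starts further upstream, at base 30842801, so by that annotation this copy lies inside the gene. All 4 copies are preceded by G and form GTGGGAA. Of 32851 promoter windows of the same length, searched on both strands, 7224 (22.0%) hold TGGGAA and 946 (2.88%) hold it 2 or more times. GTGGGAA occurs 2 or more times in 56 windows (0.170%). The E-box CACGTG, present in 6.21% of windows, and the N-box CACNAG, present in 37.4%, are sites at which Hes and Hey proteins can bind; neither was matched in these 2 windows. A match of letters is a description and not evidence of binding.

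In the GENCODE M21 annotation (GRCm38) the 5 genes are protein coding and lie on 4 chromosomes. Hes1 (ENSMUSG00000022528) lies at chr16:30064384-30067796, plus strand, and Hey1 (ENSMUSG00000040289) at chr3:8663359-8667256, minus strand. Hey2 (ENSMUSG00000019789) lies at chr10:30832359-30842801, minus strand. Hes5 (ENSMUSG00000048001) and Heyl (ENSMUSG00000032744) share chromosome 4, at chr4:154960923-154962371 and chr4:123233556-123249875, both on the plus strand. The gene Gm20421 on the opposite strand overlaps 756 bases of Hes5; no source used here says that counting used strand, so reads of the pair cannot be told apart.

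The deposited values, called scaled read counts below, are reads of a gene over a single factor for each library. Each wild-type library held 3818041 to 4797424 reads in listed genes, each E-OEX library 1980800 to 3494859 and each U-OEx library 13541644 to 14981505; in the first 2 sets this sums a selected list and is not the depth. The wild-type and E-OEX lists hold genes that differ about 2-fold or more between GE and LE in that genotype. Notch1 itself was analysed in U-OEx LE only, at 2913, 3524 and 2789 in replicates 1 to 3, so the overexpressed gene could not be compared with wild type. Summed luminal and gland markers followed the labelled epithelia, while single markers did not all do so. The 3 general epithelial markers listed in all libraries (Cdh1, Krt19 and Cldn7) summed lower in GE. Their sums were 11431 to 12389 in wild-type GE and 15696 to 20910 in E-OEX GE. In LE they were 46735 to 55534 in wild type, 39166 to 56941 in E-OEX and 27510 to 39360 in U-OEx. Over the 8 luminal markers listed in all libraries the summed scaled reads ran from 33423 to 144960 in LE libraries of the 3 genotypes and from 929 to 9245 in GE libraries. Over the 9 gland markers listed in all libraries the sums ran from 548 to 6408 in LE, from 39336 to 49263 in wild-type GE and from 9230 to 20722 in E-OEX GE, where 7 of the 9 passed as lower than in wild-type GE (393 of all 2851 genes did). In U-OEx LE against wild-type LE, 4 of 9 gland markers tested passed as higher (Foxa2, Lif, Cxcl15 and Wfdc3) and 2 as lower (Sult1d1 and Spink1). Of 8 luminal markers, 3 passed as higher (Ltf, Sprr2f and Wnt7b) and 3 as lower (Calb1, Lpar3 and Wnt7a). Of 6 general epithelial markers, 1 was higher and 4 were lower. Of all genes there, 29.1% passed as higher and 27.8% as lower.

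**Figure D1:**
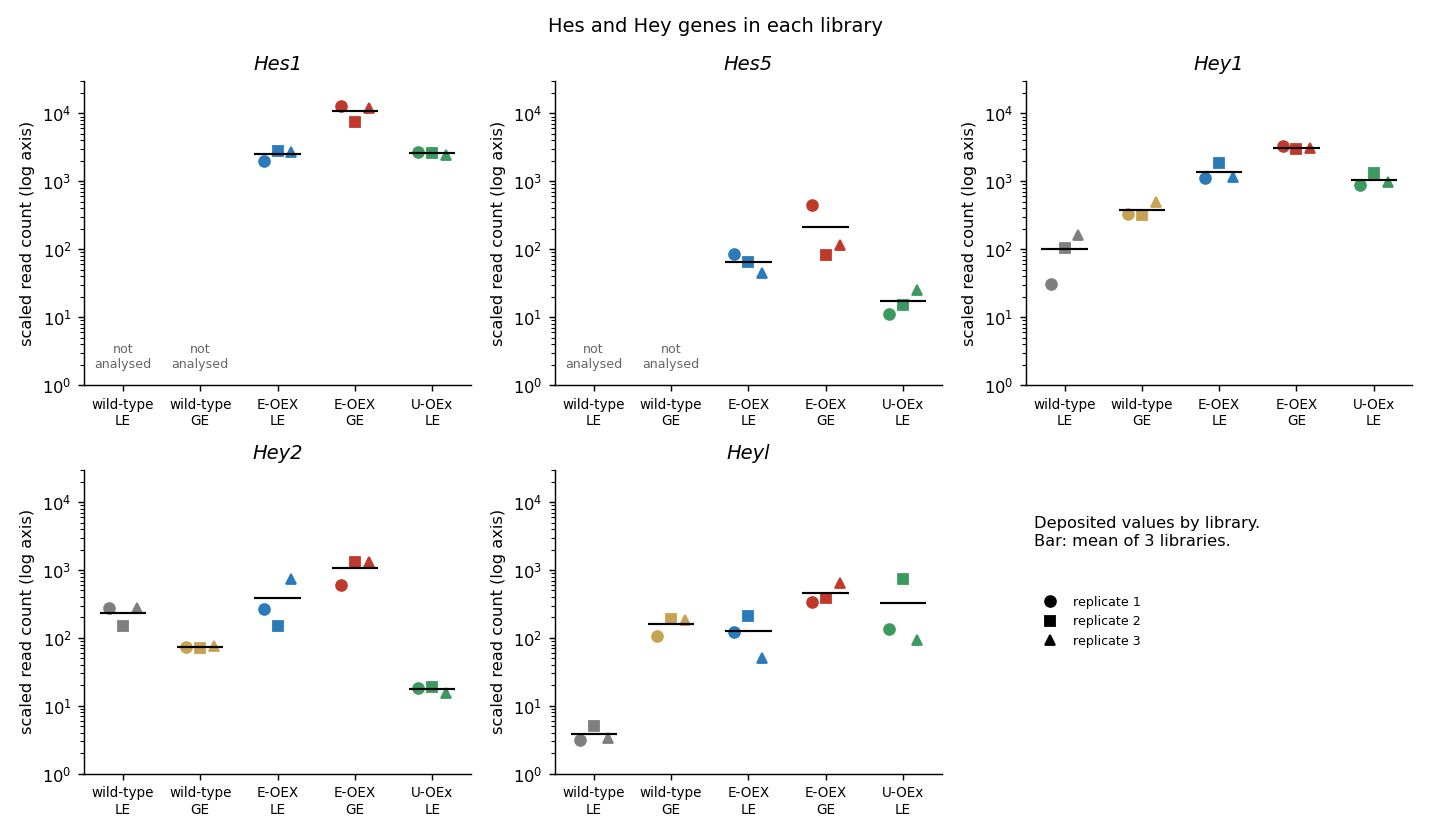
Scaled read counts of the 5 genes in each library, on log axes. Points are libraries, shapes are replicate numbers, bars are group means of 3 libraries, and Hes1 and Hes5 have no wild-type values. Hey1 is higher in every Notch1-overexpressing library than in every wild-type library, while Hey2 in U-OEx LE sits at 15.4 to 18.7, below every other library.

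Hes1 encodes the repressor that Notch induces in most tissues and that also shuts down its own promoter. Its scaled read counts were 2002, 2767 and 2685 in the 3 E-OEX LE libraries in order of replicate, averaging 2485 ± 420.3 (SD, n = 3). They were 2728, 2656 and 2454 in U-OEx LE, a mean of 2613 ± 142 (SD, n = 3). The 2 luminal groups thus overlapped. E-OEX GE stood above both, at 12707, 7518 and 11898, a mean of 10707 ± 2792 (SD, n = 3).

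Hes5 is a Notch target best known from neural progenitors. It had 85.8, 65.4 and 44.3 scaled reads in the E-OEX LE libraries, averaging 65.2 ± 20.8 (SD, n = 3). In U-OEx LE the values were 11.03, 15.11 and 24.97, a mean of 17.0 ± 7.17 (SD, n = 3), all below the lowest E-OEX LE library. E-OEX GE held 449.7, 82.8 and 115 scaled reads, a mean of 216 ± 203 (SD, n = 3). Replicate 1 of E-OEX GE was well above the other GE libraries, and replicate 2 lay within the range of E-OEX LE.

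Hey1, a Hey repressor with roles in vessels, heart and bone, was low in wild type and high in each overexpressing group. Wild-type LE held 31.1, 105 and 163 scaled reads (mean 99.9 ± 66.2, SD, n = 3), and wild-type GE held 328, 317 and 502 (mean 382 ± 104, SD, n = 3). E-OEX LE held 1104, 1832 and 1140 (mean 1358 ± 410.4, SD, n = 3), and E-OEX GE held 3260, 3029 and 3075 (mean 3121 ± 122, SD, n = 3). U-OEx LE held 889, 1308 and 993, a mean of 1063 ± 218 (SD, n = 3). Every overexpressing library exceeded every wild-type library of either epithelium, and replicate 1 of wild-type LE was the lowest of all.

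Hey2, known from arteries and the heart ventricle, followed another order. Wild-type LE held 276, 147 and 274 scaled reads (mean 232 ± 73.4, SD, n = 3), above the 73.0, 70.1 and 75.3 of wild-type GE (mean 72.8 ± 2.57, SD, n = 3). E-OEX LE held 265, 151 and 742, a mean of 386 ± 313 (SD, n = 3), with replicate 3 apart from the other two. E-OEX GE was the highest group, at 597, 1293 and 1322 (mean 1071 ± 411, SD, n = 3). U-OEx LE was the lowest, at 18.4, 18.7 and 15.4 (mean 17.5 ± 1.83, SD, n = 3), and overlapped no other group.

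Heyl, a Hey gene known as a Notch3 target in vascular smooth muscle, was nearly silent in wild-type LE, with 3.11, 5.12 and 3.35 scaled reads (mean 3.86 ± 1.10, SD, n = 3). Wild-type GE held 105, 189 and 183 (mean 159 ± 46.8, SD, n = 3). E-OEX LE held 123.2, 207.1 and 50.7 (mean 127 ± 78.2, SD, n = 3), all above every wild-type LE library. E-OEX GE held 335, 385 and 647, a mean of 456 ± 168 (SD, n = 3). U-OEx LE held 133, 748 and 93.2, a mean of 325 ± 367 (SD, n = 3), and replicate 2 carried most of that mean.

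Levels of different genes can be set against each other only per length of transcript. Per kilobase of exon, Hes1 was the most abundant of the set in each overexpressing group, at 5257 ± 1371 scaled reads in E-OEX GE, against 1220 ± 206 in E-OEX LE and 1283 ± 69.8 in U-OEx LE (SD over 3 libraries). Hey1 came next in each group, at 956 ± 37.4, 416 ± 126 and 326 ± 66.9 scaled reads per kilobase in the same order. In U-OEx LE, whose tables hold nearly all genes, the level of Hes1 per kilobase was above that of 98.5% of 27147 genes and Hey1 was above 91.5%. Heyl, at 63.5 ± 71.8 scaled reads per kilobase, was above 67.2%, Hes5 at 12.5 ± 5.26 above 47.0% and Hey2 at 3.80 ± 0.398 above 32.9%. In wild-type LE the order of the 3 listed genes was Hey2 at 50.6 ± 16.0, Hey1 at 30.6 ± 20.3 and Heyl at 0.755 ± 0.215 scaled reads per kilobase. Hey2 and Hey1 overlapped there per kilobase, with libraries from 32.1 to 60.0 for Hey2 and from 9.52 to 50.0 for Hey1. In wild-type GE Hey1 led at 117 ± 31.8, followed by Heyl at 31.1 ± 9.15 and Hey2 at 15.9 ± 0.559. Among relatives outside the set in U-OEx LE, Hes6 reached 404 ± 37.1 scaled reads per kilobase, while Hes2 (0.794 ± 0.846) and Hes7 (1.53 ± 1.33) were near 0 and Hes3 was listed at 0 in each library.

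For comparisons between genotypes the whole reads were recovered from the scaled counts and rescaled together by the TMM method over the shared genes, because the sets of tables need not share a scale. Each difference is a log2 fold change of rescaled reads plus 1, tested with limma across all shared genes, with Benjamini-Hochberg adjustment and a threshold of 0.05. Means beside a fold change below are rescaled reads. E-OEX LE and U-OEx LE were both set against the same 3 wild-type LE libraries, so those comparisons are not independent.

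In E-OEX LE, Hey1 and Heyl rose and Hey2 did not pass the test. Hey1 stood at 1289 ± 494 rescaled reads in E-OEX LE against 104 ± 70.9 in wild-type LE, which is a log2 fold change of 3.83 (SE 0.62, 95% interval 2.45 to 5.21, limma adjusted p = 0.00646). Heyl stood at 121 ± 82.0 against 4.003 ± 0.759, which is a log2 fold change of 4.37 (SE 0.71, 95% interval 2.78 to 5.96, limma adjusted p = 0.00646). The groups did not overlap for either gene. Hey2 differed by 0.30 (SE 0.63, 95% interval -1.12 to 1.71, limma adjusted p = 0.80) and its groups overlapped; the sign turned to -0.072 without replicate 2 of wild-type LE and to -0.18 without replicate 3 of E-OEX LE. Of 2600 genes tested, 10.7% passed, 5.12% in the higher direction, and the groups did not overlap for 29.9%. The 3 members tested had a median log2 fold change of 3.83, against -0.09 over all genes. In bulk RNA of this kind, more cells of a type and more RNA per cell cannot be told apart.

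Heyl in wild-type LE rested on 3, 5 and 3 reads, 11 in all (95% exact Poisson interval 5.49 to 19.7). On the ratio of the means rescaled for each comparison, E-OEX LE was 30.1-fold (interval 16.8 to 60.4) and U-OEx LE 82.7-fold (interval 46.2 to 166) above wild-type LE. These intervals cover counting error only, and in U-OEx LE the spread between libraries was wide. Leaving out replicate 1 of wild-type LE, the library with the fewest Hey1 reads, took the Hey1 log2 fold change to 3.20 in E-OEX LE. Without replicate 3 of E-OEX LE that of Heyl was 5.06.

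In E-OEX GE all 3 listed members rose against wild-type GE, and no groups overlapped. Hey2 rose most, reaching 918 ± 307 rescaled reads against 87.8 ± 6.15, a log2 fold change of 3.31 (SE 0.31, 95% interval 2.62 to 4.0, limma adjusted p = 0.000121). Hey1 reached 2737 ± 353 against 462 ± 133, a log2 fold change of 2.59 (SE 0.26, 95% interval 2.01 to 3.18, limma adjusted p = 0.000144). Heyl reached 390 ± 103 against 191 ± 52.1, a log2 fold change of 1.04 (SE 0.31, 95% interval 0.34 to 1.74, limma adjusted p = 0.0379). The members' median was 2.59, against 0.05 over the 2851 genes tested, of which 23.5% passed, 9.72% in the higher direction, and 40.5% had groups that did not overlap. On the deposited scale the 3 genes also rose, by 3.06 for Hey1, 3.77 for Hey2 and 1.50 for Heyl, but there the median of all genes moved to 0.50, and 71.6% of called genes were higher against 41.3% after rescaling. The call of Heyl was lost when any library but replicate 1 of E-OEX GE was left out (limma adjusted p from 0.0585 to 0.125), and in a single fit over all 5 groups (1.10, limma adjusted p = 0.428); over all settings run the adjusted p ranged from 0.0120 to 0.428.

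In U-OEx LE, Hey1 and Heyl rose against wild-type LE and Hey2 fell, again without overlap. Hey1 reached 1066 ± 204 rescaled reads against 99.0 ± 62.8, a log2 fold change of 3.65 (SE 0.52, 95% interval 2.45 to 4.85, limma adjusted p = 0.000599). Heyl reached 323 ± 362 against 3.91 ± 0.912, a log2 fold change of 5.45 (SE 0.75, 95% interval 3.72 to 7.19, limma adjusted p = 0.000506). Hey2 went the other way, at 17.5 ± 1.78 rescaled reads against 240 ± 86.3, a log2 fold change of -3.63 (SE 0.41, 95% interval -4.56 to -2.70, limma adjusted p = 0.000167) or 12.4-fold lower. In this comparison 56.9% of 5949 genes passed, 29.1% higher and 27.8% lower, and 63.8% did not overlap, so 3 of 3 members past the threshold is to be read against a background in which most genes passed. The members' median of 3.65 stood beside 0.09 over all genes. Without replicate 2 of U-OEx LE the Heyl log2 fold change was 4.60, without replicate 3 it was 6.10, and without replicate 1 of wild-type LE that of Hey1 was 3.03.

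**Figure D2:**
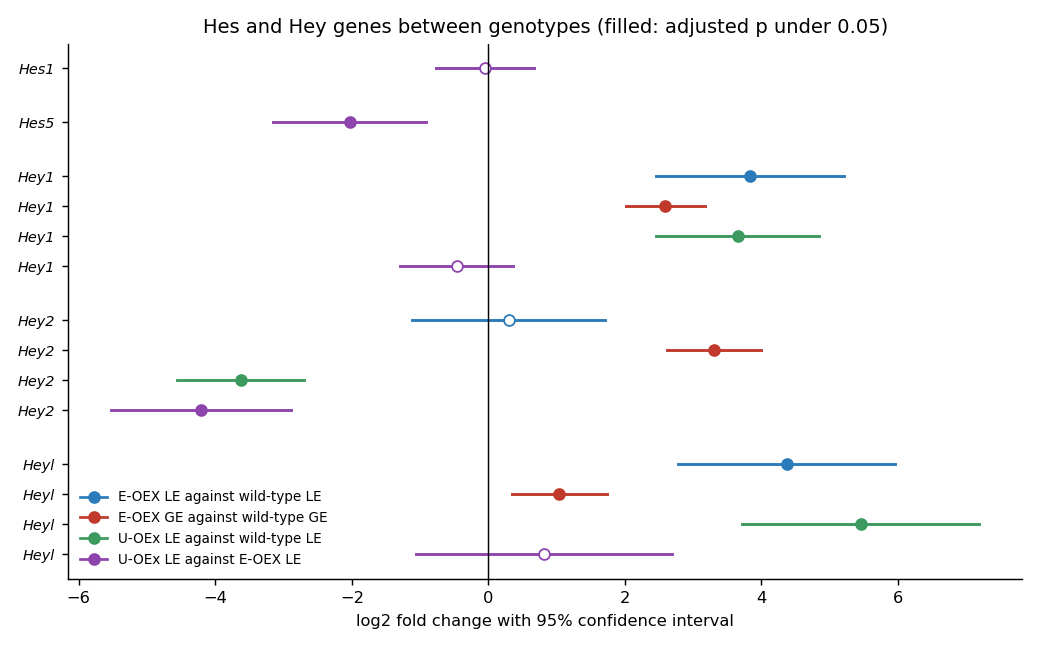
Log2 fold changes of the 5 genes in the 4 comparisons between genotypes, with 95% confidence intervals from limma; each line is 1 gene in 1 comparison, colours are comparisons, and filled points have an adjusted p under 0.05. Hey1 lies to the right of 0 in the 3 comparisons with wild type, and Hey2 ranges from -4.21 to 3.31.

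The 2 kinds of overexpressing LE were compared directly for all 5 genes, and Hes5 and Hey2 were lower in U-OEx LE. Hey2 was at 17.8 ± 2.56 rescaled reads in U-OEx LE against 428 ± 356, which gives a log2 fold change of -4.21 (SE 0.58, 95% interval -5.52 to -2.90, limma adjusted p = 0.00592). Hes5 was at 17.1 ± 6.39 against 71.7 ± 18.9, a log2 fold change of -2.03 (SE 0.49, 95% interval -3.15 to -0.91, limma adjusted p = 0.0296). Neither overlapped between the groups, where 38.2% of 4275 genes did not overlap and 15% passed, 8.05% in the lower direction.

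The other 3 genes did not pass between U-OEx LE and E-OEX LE. Hes1 differed by -0.047 (SE 0.31, 95% interval -0.76 to 0.67, limma adjusted p = 0.94), and its sign changed with the scaling, to 0.086 on the deposited scale and 0.20 after quantile normalization. The interval leaves room for a change of less than 1 on the log2 scale in either direction. Hey1 differed by -0.47 (SE 0.36, 95% interval -1.29 to 0.36, limma adjusted p = 0.41). Heyl differed by 0.81 (SE 0.83, 95% interval -1.06 to 2.68, limma adjusted p = 0.54), and by -0.10 without replicate 2 of U-OEx LE. The members' median was -0.47 against 0.06 over all genes. The Hes5 call was lost without replicate 2 of E-OEX LE or without any 1 library of U-OEx LE (limma adjusted p from 0.0724 to 0.131), without a filter on low values (0.0512) and with a block for the replicate number (0.0544); over all settings run its adjusted p ranged from 0.00105 to 0.131. Without replicate 3 of E-OEX LE the Hey2 difference was -3.57.

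Between the epithelia of 1 genotype the listed genes had been chosen for a difference, so the values are a description with no test. In wild type, Hey1 was 3.82-fold and Heyl 41.2-fold higher in GE, while Hey2 was 3.19-fold higher in LE, on the ratio of mean scaled counts, and no groups overlapped. Of all 6414 genes listed in wild type, 57.0% were higher in GE. In E-OEX all 5 members were higher in GE, as were 63.9% of the 4903 genes listed there. Hes1 was 4.31-fold higher, Heyl 3.59-fold, Hey1 2.30-fold, Hey2 2.78-fold and Hes5 3.31-fold. The groups overlapped for Hey2 and Hes5 on the deposited scale. After rescaling over all 15 libraries they overlapped for Hey1 and Heyl too, and only Hes1 stayed apart. On the log2 scale the Hes5 difference of 1.36 went to 0.63 without replicate 1 of E-OEX GE, that of Hey2 from 1.70 to 2.33 without replicate 3 of E-OEX LE, and that of Hey1 in wild type from 2.18 to 1.50 without replicate 1 of wild-type LE. Rescaling within E-OEX by TMM lowered the E-OEX differences, to 1.35 for Hes1 (from 2.08), 1.26 for Heyl (from 1.99), 0.96 for Hey2, 0.63 for Hes5 and 0.50 for Hey1 (from 1.24).

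Whether overexpression acted alike in both epithelia was tested as the interaction of genotype and epithelium in the wild-type and E-OEX libraries, over 2933 shared genes that had been chosen on parts of this contrast. For Hey2 the GE minus LE difference went from -1.60 in wild type to 1.70 in E-OEX, an interaction of 3.30 (SE 0.76, 95% interval 1.67 to 4.93, limma adjusted p = 0.0148). For Heyl it went from 5.02 to 1.99, an interaction of -3.02 (SE 0.75, 95% interval -4.64 to -1.41, limma adjusted p = 0.0210). For Hey1 it went from 2.18 to 1.24, an interaction of -0.94 (SE 0.70, 95% interval -2.46 to 0.57, limma adjusted p = 0.46), which was -0.26 without replicate 1 of wild-type LE and -0.14 after quantile normalization. So on the log2 scale the Hey2 change was larger in GE and that of Heyl in LE, and for Hey1 a difference between the epithelia did not pass. Of 10 smooth muscle and pericyte markers, 4 passed as positive (Acta2, Cnn1, Myh11 and Abcc9) and 0 as negative, with a list median of 2.80. Stromal and endothelial medians were 1.75 and 1.63. Of 9 gland markers, 5 passed as negative and 0 as positive, with a median of -3.77. The part of these markers' cells in the interactions was not tested. For Heyl the start in wild-type LE was 3 to 5 reads per library, at or near the detection floor of 3 reads. In mean scaled reads Heyl went from 3.86 to 127 in LE and from 159 to 456 in GE, but the sets of tables need not share a scale. Rescaled together over all 15 libraries, it went from 5.39 to 167 in LE and from 130 to 281 in GE. The gain in reads was thus larger in GE on the deposited scale only. Of all genes 10.7% passed, 5.83% positive and 4.91% negative, around a median of 0.33, which moved to 0.07 after TMM rescaling (43.9% of called genes positive, against 54.3%). The Heyl interaction lost its call when 1 of 5 libraries was left out: replicate 3 of wild-type LE, replicates 2 and 3 of wild-type GE, and replicate 2 of E-OEX LE and of E-OEX GE (limma adjusted p from 0.0505 to 0.0666; from 0.000978 to 0.0666 over all settings run). With a pseudocount of 5 it was -2.23 and still passed (limma adjusted p = 0.0497), and without replicate 3 of E-OEX LE the Hey2 interaction was 3.93.

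Set on 1 scale over the 2819 genes listed in all 15 libraries, the order of group means differed by gene. Hey1 ran from E-OEX GE (1957 ± 222 rescaled reads) by way of E-OEX LE (1713 ± 743) and U-OEx LE (1401 ± 328) to wild-type GE (317 ± 99.5) and wild-type LE (142 ± 96.9). The first 3 overlapped their neighbours, and the steps to wild-type GE and to wild-type LE did not. Hey2 ran from E-OEX GE (658 ± 220.0) through E-OEX LE (431 ± 270) and wild-type LE (309 ± 77.2), which overlapped in turn, to wild-type GE (60.1 ± 6.22) and U-OEx LE (23.0 ± 2.96), each apart. Heyl ran from U-OEx LE (436 ± 502) through E-OEX GE (281 ± 83.4), E-OEX LE (167 ± 119) and wild-type GE (130.01 ± 34.8), all overlapping in turn, to wild-type LE (5.39 ± 2.23), which stood apart. Hes1 ran from E-OEX GE (6729 ± 1989) to U-OEx LE (3434 ± 258) and E-OEX LE (3053 ± 689), of which the last 2 overlapped. Hes5 ran from E-OEX GE (141 ± 142) to E-OEX LE (82.9 ± 35.9), which overlapped, and to U-OEx LE (22.3 ± 8.90), which did not.

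A ratio of reads between 2 of the genes in the same library does not depend on scaling at all, and it showed how the make-up of the set differed by group. For each 100 reads of Hey1, wild-type LE held 887, 140 and 168 reads of Hey2, and U-OEx LE held 2.07, 1.43 and 1.55. Wild-type GE held 15 to 22.3, E-OEX LE 8.23 to 65.1 and E-OEX GE 18.3 to 43.0. Against wild-type LE the log2 ratio differed by -3.53 in E-OEX LE and by -7.28 in U-OEx LE, with no overlap, and between U-OEx LE and E-OEX LE it differed by -3.75, also with no overlap. Single libraries moved these sizes. Without replicate 1 of wild-type LE the first was -2.70 and the second -6.45. Without replicate 2 of E-OEX LE the first was -2.78 and the third -4.50, and without replicate 3 of E-OEX LE they were -4.27 and -3.01. Each of the 3 differences had an exact two-sided permutation p of 0.1, the smallest that 3 against 3 allows (adjusted 0.2 over 10 ratio comparisons). Between the GE groups it differed by 0.71 with overlap (exact permutation p = 0.3).

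Heyl and Hey1 shifted unequally in GE. Reads of Heyl per 100 of Hey1 were 32.0 to 59.6 in wild-type GE, against 10.3 to 21.1 for E-OEX GE, a log2 difference of -1.56 with no overlap (exact permutation p = 0.1, adjusted 0.2). In LE the ratio overlapped between all 3 genotypes, at 2.05 to 10 in wild type, 4.45 to 11.3 in E-OEX and 9.38 to 57.2 in U-OEx. Hes1 reads per 100 of Hey1 were 151 to 236 in E-OEX LE, 203 to 307 in U-OEx LE and 248 to 390 in E-OEX GE, and the LE groups overlapped (exact permutation p = 0.2). Hes5 reads per 100 of Hes1 were 1.65 to 4.29 in E-OEX LE and 0.404 to 1.02 in U-OEx LE, a log2 difference of -1.99 with no overlap (exact permutation p = 0.1, adjusted 0.2).

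**Figure D3:**
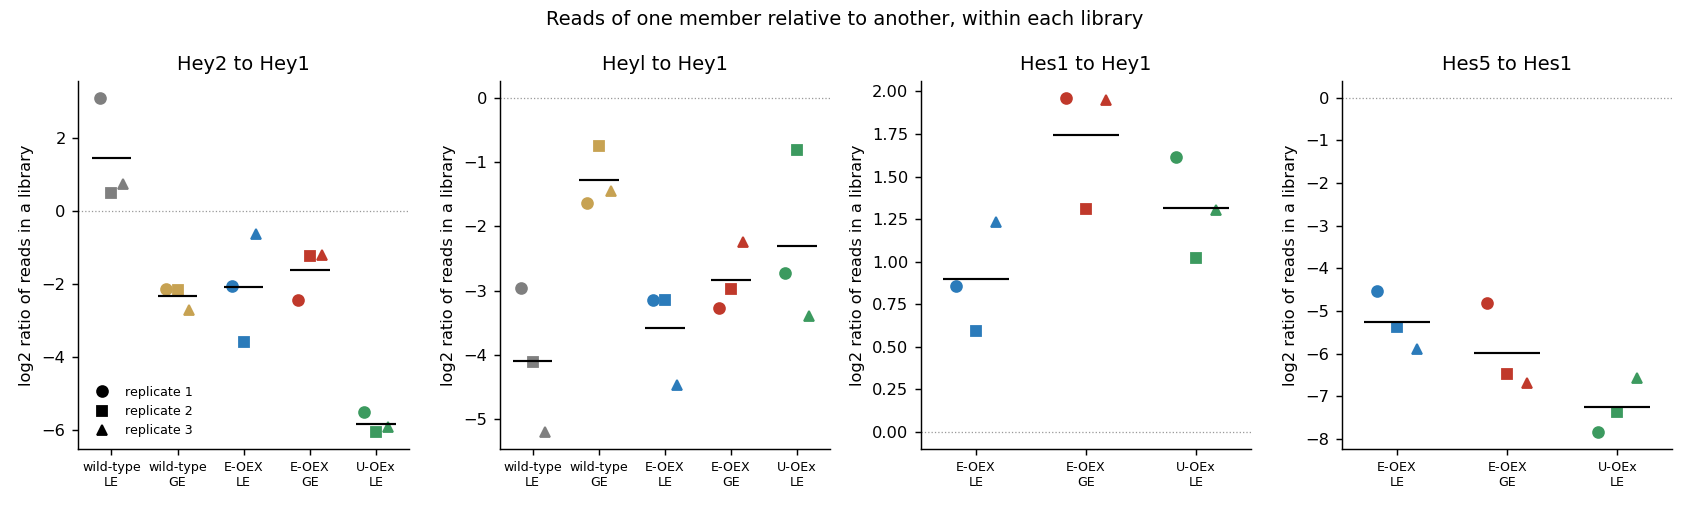
Log2 ratio of reads (each plus 1 read) of 1 gene to another in the same library, by group; points are libraries, shapes are replicate numbers, bars are means of 3 libraries and dotted lines mark equal reads. Hey2 to Hey1 falls from wild-type LE through E-OEX LE to U-OEx LE without overlap, and Heyl to Hey1 is lower in the GE of E-OEX mice than of wild-type mice.

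Within the LE groups the genes did not peak in the same library. In E-OEX LE, Hey1 and Heyl were highest in replicate 2 and Hey2 in replicate 3, the library in which Heyl was lowest. In U-OEx LE, Hey1 and Heyl were highest in replicate 2 and Hes5 in replicate 3. Hes1 there was highest in replicate 1 in scaled reads and in replicate 2 after rescaling over all 15 libraries (3604 against 3560). Notch1 (3524) and Notch3 (2460 against 1480 and 1282 scaled reads) were also highest in U-OEx LE replicate 2. Marker lists did not all peak there. The sum of 10 smooth muscle and pericyte markers was highest in that library (176 against 146 and 110 scaled reads). The endothelial receptor gene Tek was highest in that library (165 against 37.7 and 16.3 scaled reads), but Pecam1 (49.8 against 119 and 120.1) and the sum of 10 endothelial markers (223 against 348 and 302) were lowest in it. Of the stromal markers, the matrix gene Postn was highest there (20833 against 11229 and 6027), and the other 7 summed to their lowest level (547 against 899 and 1737). The part of smooth muscle cells, pericytes and Tek- or Postn-expressing cells in the Heyl value was not tested.

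Heyl and Hey2 are also expressed in vessels, so markers of other uterine cells are given beside them. Over 10 smooth muscle and pericyte markers listed in all libraries, the summed scaled reads were 113 to 390 in wild-type LE, 20.5 to 75.8 in E-OEX LE and 110 to 176 in U-OEx LE. Of the 11 markers of this list that the E-OEX tables hold, 2 were at 0 in all E-OEX LE libraries (Rgs5 and Abcc9), and the rest were not. In U-OEx LE against wild-type LE, 1 of 10 markers of this list that were tested passed as higher (Notch3, log2 fold change 2.25). Des and Cnn1 passed as lower, where 29.1% of all genes passed as higher and 27.8% as lower. The part of Notch3-expressing cells in the Heyl values was not tested. In E-OEX LE against wild-type LE, 0 of 9 markers of this list that were tested passed by limma (list median log2 fold change -1.70), where 10.7% of all genes passed. At an unadjusted p under 0.05, 4 of the 9 were lower by limma, and by adjusted p edgeR called 1 (Rgs5) and DESeq2 called 2 (Rgs5 and Des), all lower. The part of smooth muscle cells and pericytes in the E-OEX LE values of Heyl was not tested. Over 10 endothelial markers the sums were 238 to 581 in wild-type LE, 174 to 368 in E-OEX LE and 223 to 348 in U-OEx LE. In U-OEx LE against wild-type LE, 3 of 13 endothelial markers passed as higher (Tek, Flt1 and Pecam1) and 1 as lower (Sox17). Of all genes in that comparison, 29.1% passed as higher and 27.8% as lower. In GE the sums were larger: 5466 to 8903 in wild type and 20156 to 21997 in E-OEX for smooth muscle, and 3892 to 6666 and 4929 to 13532 for endothelium. In E-OEX GE 4 of 10 smooth muscle markers tested passed as higher (Cnn1, Actg2, Myh11 and Acta2), where 9.72% of all genes did. The rest did not pass, and the list median was 0.68. Heyl and Hey2 thus moved in GE together with these 4 markers, and the markers' part in the GE differences was not tested.

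Stromal markers, summed over 8 genes, were 369 to 7741 in wild-type LE, 521 to 2429 in E-OEX LE and 7764 to 21379 in U-OEx LE. Postn carried the sum in U-OEx LE, with 6027 to 20833 scaled reads against 0 to 20.5 in wild-type LE. In E-OEX LE it held 126 to 421 and passed as higher than in wild-type LE (log2 fold change 4.63, limma adjusted p = 0.0289). It was the only 1 of 8 stromal markers to pass there, with a list median of -1.39, where 10.7% of all genes passed. Postn was thus higher in both LE groups in which Heyl was higher, and its part in the Heyl values was not tested. Over the other 7 genes U-OEx LE held 547 to 1737, inside the 369 to 7720 of wild-type LE. In GE the 8-gene sums were far larger, 34363 to 101130 in wild type and 76819 to 91582 in E-OEX, so the higher Hey1 and Heyl of GE, and in E-OEX the higher level of all 5 genes there, went with more reads of stromal markers; their part in these differences was not tested. The list's median log2 fold change in U-OEx LE was -1.33, with 1 of 8 genes higher (Postn) and 1 lower (Hoxa11). Of all genes there, 29.1% passed as higher and 27.8% as lower.

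**Figure D4:**
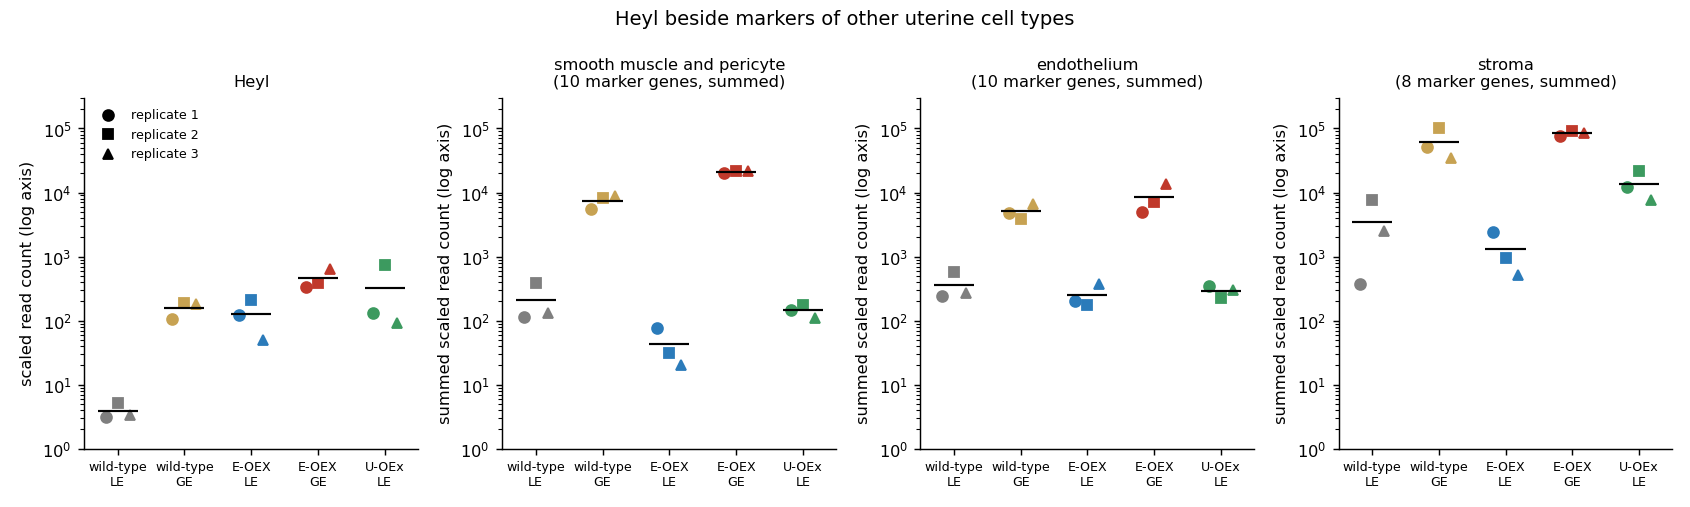
Heyl (left) and the summed scaled read counts of markers of smooth muscle and pericytes, endothelium and stroma, by group, on log axes; points are libraries, shapes are replicate numbers and bars are means of 3 libraries. Heyl in E-OEX LE (50.7 to 207) lies above wild-type LE. The smooth muscle sum in E-OEX LE (20.5 to 75.8) lies below wild-type LE, and the endothelial and stromal sums overlap it.

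The rest of the Notch pathway was followed in 7 lists of 93 genes, covering receptors, ligands, modifiers, the nuclear complex with its corepressors, other target genes, related bHLH genes and proneural bHLH genes. In E-OEX LE, 1 of the 21 pathway genes tested passed, where 10.7% of all genes did: the target Id1, an inhibitor of bHLH factors, with a log2 fold change of 3.04. Hey1 and Heyl rose beside it. In E-OEX GE, 5 of 21 were higher and 3 lower, where 23.5% of all genes passed and 9.72% were higher. The 5 were Id1 (2.62), the cell cycle inhibitor Cdkn1a (1.83), the smooth muscle actin gene Acta2 (1.65), which is also a marker in the smooth muscle list, Myc (1.33) and Id4 (1.24). The 3 were the Notch inhibitor Numbl (-1.40), the corepressor Tle1 (-1.08) and the presenilin Psen2 (-0.93), all on the log2 scale.

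In U-OEx LE, 14 of 37 pathway genes were higher and 11 lower, where 56.9% of all genes passed, 29.1% as higher and 27.8% as lower. The largest were Cdkn1a (3.86), Neurl1a (3.49), Dtx1 (3.20), Id1 (2.71), Numbl (-2.44), Sox9 (2.34), Notch3 (2.25) and Tle2 (-2.25). Notch3 is also a marker in the smooth muscle list. Neurl1a and Dtx1 encode ubiquitin ligases that act on Notch ligands or receptors, and Tle2 a corepressor of the Hes proteins. Of the 19 corepressor and nuclear complex genes 6 were tested, of which 4 were lower (Tle2, Hdac1, Maml2 and Tle1) and 1 was higher (Maml3). Of all genes, 27.8% were lower and 29.1% higher. Between U-OEx LE and E-OEX LE, 4 of 29 were higher, namely Il2ra (4.35), Acta2 (3.23), Dtx1 (2.36) and Lfng (1.61), and 2 were lower, Id2 (-2.22) and Id4 (-2.11), where 15% of all genes passed. Id2 and Id4 encode bHLH inhibitors, and they were lower in U-OEx LE together with Hes5 and Hey2. In the interaction, Acta2 (4.54) and the ligand gene Dll4 (2.58) passed of 21 tested, both positive as Hey2 was, where 10.7% of all genes passed. The proneural list had 1 gene tested in each comparison, Ascl2, which did not pass.

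The genes whose levels across libraries most resembled each member are given as a description, since libraries share groups and scaling. Across 15 libraries and 2357 genes, the genes most like Hey1 included Pter (Pearson r = 0.919), Rasl11a (0.899), Id1 (0.899) and Csrnp3 (0.894). Hey2 was most like Slc6a15 (0.946), Lgi3 (0.835), Rasd1 (0.796), Galm (0.753) and Spin4 (0.752). Slc6a15, an amino acid transporter gene, had log2 fold changes against wild type of 5.74 for E-OEX GE and -4.13 for U-OEx LE, the directions of Hey2. Heyl was most like Bend7 (0.957), Tmem159 (0.951), Foxq1 (0.941), Pkdrej (0.939) and Ptprm (0.931). Among the members themselves Hey1 and Heyl had r = 0.820, Hey1 and Hey2 had 0.0372, and Hey2 and Heyl had -0.27. Across the 9 overexpressing libraries and 3564 genes, the genes most like Hes1 included Foxc2 (0.959), Adam12 (0.949), Mettl24 (0.947) and Evc2 (0.937), and Hes5 was most like Atp6v0e2 (0.956), Dscam (0.917), Ikzf4 (0.908), Mitf (0.895) and Akr1c14 (0.894). Over those 9 libraries Hes1 and Hes5 had r = 0.607.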

How the data were processed

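Total RNA was purified with an RNeasy mini plus kit and the NEBNext Ultra kit was used to make the libraries, per the labels' protocols. The genome builds GRCm38 and mm10 are named in the submitters' processing notes, while the aligner, the counting tool, the annotation and the scaling method are not given in the sources used here. The authors deposited 1 table per library, whose values are treated as a signal: read counts that were divided by 1 factor per library, since all values (100%) were whole multiples of the library's step within 0.01 of a read. Gene names are those in the files; 27457 of 27495 Ensembl identifiers matched GENCODE M21, from which coordinates and exon lengths were taken.

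Recovered reads of the genes shared by the groups compared (2933 for wild type and E-OEX, 6204 for wild type and U-OEx, 4676 for E-OEX and U-OEx) were rescaled together by TMM (edgeR 4.0.16). Differences were tested with limma 3.58.1 (R 4.3.3, moderated by eBayes with a trend in the mean) on log2(value + 1), over genes with a mean of at least 1 and with only the groups compared, with Benjamini-Hochberg adjustment and a threshold of 0.05. A fold change on this scale understates the change of low genes. The interaction and the within-genotype differences used values as deposited. TMM takes the bulk of the shared genes as unchanged, and those genes were listed because they differ between the epithelia. Ratios within a library used an exact permutation test. Fits were tested on simulated data. Replicates were compared by a chi-square of their reads (16.6 to 182 per degree of freedom), and no library repeated another. A count of 3 reads or fewer was treated as the detection floor.

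The members and gene lists were chosen with earlier results of these data known. All 5 members are named; from the pathway lists up to 8 genes past the threshold are named per comparison by size of fold change, with Notch1 always; and the 5 genes most like each member by Pearson correlation of log2 rescaled reads, among genes with a mean of at least 10. Some genes that this rule would name are not reported here. Marker genes of other cell types are named after their values were seen, where few of a list passed or a library stood apart. Alternatives were pseudocounts of 0.1 and 5, no filter or a minimum mean of 10, other scalings, edgeR and DESeq2 1.42.0 on recovered reads, 1 fit over 5 groups, the replicate number as a block, and each library left out.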

Additional observations from a re-analysis of the deposited data

Results flagged for a closer look

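In Hey2 and Heyl the effect of Notch1 overexpression differed between the 2 epithelia by a direct test of that difference. The interaction was fitted on the deposited scale, and the fold changes in this paragraph are on that scale too. The Hey2 interaction was 3.30 (limma adjusted p = 0.0148): the log2 fold change was 0.47 in LE and 3.77 in GE. The Heyl interaction was -3.02 (limma adjusted p = 0.0210): the log2 fold change was 4.53 in LE and 1.50 in GE. Wild-type LE held only 3 to 5 Heyl reads per library, at or near the detection floor. Both genes were listed because the epithelia differ in each genotype, so they were chosen on parts of this contrast. Some smooth muscle markers also passed as positive and some gland markers as negative, and the part of such cells in both interactions was not tested.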

How the results depend on the processing

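Of 560 values recomputed under other settings, 504 kept their direction and side of the threshold, or stayed close to the reported value; 19 lost a call, 27 moved and 10 changed sign, and none gained a call. Each call of Hey1 and of Hey2, and that of Heyl in both LE groups against wild type, was kept under every setting run. Whether the replicate numbers pair the libraries cannot be settled with 3 libraries per group. Same-numbered libraries correlated in their deviations from the group means at -0.333, 0.242 and 0.109 (E-OEX LE and wild-type LE) and 0.0393, 0.0841 and 0.237 (the GE groups). The values were 0.0751, -0.18 and 0.0371 (U-OEx LE and wild-type LE) and 0.141, 0.186 and -0.19 (the overexpressing LE groups). Within a genotype they were 0.0494, 0.119 and -0.025 (wild-type GE and LE) and 0.0204, -0.17 and 0.162 (E-OEX GE and LE). Differently numbered libraries ran from -0.49 to 0.40 over these comparisons, and from -0.183 to 0.0706 in the GE groups. With a replicate block, 292, 718, 3182, 612 and 314 genes passed in the 5 tests (277, 670, 3384, 642 and 315 without it), and of the members only Hes5 in U-OEx LE against E-OEX LE lost its call (-2.03, limma adjusted p = 0.0544). Heyl in E-OEX GE lost its call at 1.04 without a filter (0.0555), 1.03 after quantile normalization (0.0522) and 1.10 in 1 fit over 5 groups (0.428), and Hes5 at -2.03 without a filter (0.0512). Hes1 between the overexpressing LE groups turned to 0.086 on the deposited scale, 0.039 with TMM over the genes of all 15 libraries and 0.20 after quantile normalization. With single libraries left out, the log2 fold changes ranged from -0.18 to 0.75 for Hey2 in E-OEX LE, from 0.83 to 1.18 for Heyl in E-OEX GE, from -0.28 to 0.081 for Hes1, from -2.30 to -1.80 for Hes5 and from -0.10 to 1.42 for Heyl between the overexpressing LE groups, from -3.57 to -2.57 for the Heyl interaction, and from -0.050 to 1.07 for the ratio of Heyl to Hey1 in E-OEX LE. The numbers of genes called over all genes ranged, with single libraries left out, from 56 to 322 for E-OEX LE, 362 to 728 for E-OEX GE, 2757 to 3439 for U-OEx LE, 60 to 904 in U-OEx LE against E-OEX LE and 179 to 449 in the interaction. Other settings gave 105 (no filter), 464 (DESeq2) and 616 (1 fit over 5 groups) for E-OEX LE, 285 for E-OEX GE, 1274 for U-OEx LE (1 fit, which tests 2819 genes), 286 in U-OEx LE against E-OEX LE (no filter) and 501 in the interaction (DESeq2). On the deposited scale 58.6% of genes called in E-OEX LE were higher (48.0% after rescaling). With a pseudocount of 5 the GE minus LE difference of Heyl in wild type was 4.17, and TMM within E-OEX gave 1.35 for Hes1 and 0.50 for Hey1. Pseudocount and count models moved the Heyl fold changes to 3.58 and 4.97 in E-OEX LE (a pseudocount of 5 and DESeq2) and to 4.62, 6.32 and 6.26 in U-OEx LE (a pseudocount of 5, edgeR and DESeq2); the wild-type LE libraries held 3 to 5 Heyl reads each. Leaving out 1 library moved them as far, to 5.06 in E-OEX LE and to 4.60 and 6.10 in U-OEx LE. The Hey1 interaction ranged from -1.44 to -0.26 with single libraries left out. The cause of the other changes was not tested.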
